A study of Mus musculus with 19 samples.

Results

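The measurement described here is how much the step from mouse embryonic stem cells to epiblast-like cells differed between Tet3-/- and wildtype XX cells. For each gene the change in XX was subtracted from the change in Tet3-/-, so a negative transition difference means that the gene rose less, or fell more, in Tet3-/- than in XX. All values that enter it come from 13 of the 19 libraries of the series, chosen by their labels: 3 XX mESC, 3 XX EpiLC, 4 Tet3-/- mESC (mutants #1 to #4) and 3 Tet3-/- EpiLC (mutants #1, #3 and #4). mESC are embryonic stem cells, here kept in N2B27 medium with LIF and inhibitors of GSK3 and of MEK1/2, and EpiLC (epiblast in the library titles) were derived over 5 days by feeding FGF5 with Activin A and leaving out LIF. All 13 libraries carry the strain label LF2, and the groups of 1 state differ only in the genotype label, wildtype or Tet3-/-. The labels name neither the allele nor whether the mutant numbers are separate clones, and they do not say that libraries of 1 group came from separate cultures. P-values therefore measure the spread between these libraries, which may be technical. The series was set up to ask whether TET3 is needed for this transition.

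TET3 is 1 of the TET dioxygenases, which oxidise 5-methylcytosine in DNA and so take part in its removal. Mouse embryonic stem cells with these inhibitors and LIF are in naive pluripotency, a state held by factors such as NANOG, ESRRB, KLF4 and TFCP2L1. With FGF and Activin signals the naive factors fall, formative factors such as OTX2, POU3F1 and FGF5 rise, and DNMT3A and DNMT3B add DNA methylation.

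Levels are given as scaled TPM, the deposited TPM (transcripts per 1000000, which corrects for transcript length) divided by a median-of-ratios factor for each library. Differences are on log2(scaled TPM + 1), which understates changes of genes with low levels. A gene was called where the limma p-value, adjusted by the Benjamini-Hochberg method over 13679 genes, was under 0.05. Depth is unknown, because TPM does not keep it.

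Of 13679 genes, 47 were called (0.344%), 14 higher (0.102%) and 33 lower (0.241%) in Tet3-/-. At an unadjusted p under 0.05 there were 530 higher and 723 lower genes, and the median difference of all genes was 0.01. An absolute difference of at least 1 was found for 33 of the 47. The filter on low values bears on the lower genes: 8 of the 33 reached a TPM of 1 in XX EpiLC libraries alone, the group where they are high, and 1 in Tet3-/- mESC libraries alone, so that they entered the test through their difference. That leaves 24 lower genes, and all 14 higher ones, that reached it in more than 1 group. The split between directions depended on the scale: without scaling 0 genes were called higher and 20 lower, and after rescaling over nuclear protein-coding genes 3 were called higher and 49 lower, with medians of all genes of -0.29 and -0.18. All 47 kept their sign under both scales.

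The number called also depended on single libraries. Without 1 library at a time it was 11, 236 and 19 (XX mESC 1, 2 and 3), 16, 23, 23 and 15 (Tet3-/- mESC mutants #1 to #4), 6, 5 and 4 (XX EpiLC 1, 2 and 3), and 16, 101 and 40 (Tet3-/- EpiLC mutants #1, #3 and #4). XX mESC 2 and EpiLC mutant #3 were the libraries farthest from the rest of their groups, with root mean square log2 distances of 0.656 and 0.589, against 0.244 to 0.408 for the other 11. Among Tet3-/- mESC, mutants #1 and #4 were 0.350 apart and #2 and #3 0.375, against 0.465 to 0.501 for the other pairs. For Dab2, picked after its values were seen, XX mESC 2 was low together with mutants #2 and #3. Its levels were 0.473, 0.362 and 0.426 scaled TPM in these. They were 4.02 and 5.00 in XX mESC 1 and 3, and 1.96 and 1.89 in mutants #1 and #4. Gata6 and Zscan4f split likewise and Sparc did not, and the cause was not tested. With XX mESC 2 and EpiLC mutant #3 left out, 348 genes were called higher and 330 lower. The sign of each called gene was the same in every such fit that tested it, and for single genes the text gives the number of the 13 leave-one-out fits in which the call was made.

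EpiLC mutant #3 differed from the other EpiLC libraries in its markers. T, a mesoderm factor, was at 65.4 scaled TPM in it and at 0.463 to 1.18 in the other 5 EpiLC libraries, and the mesendoderm markers T, Eomes, Mixl1 and Gsc summed to 90.1 against 2.80 to 4.28. Fgf5 was at 30.3 against 2.21 to 4.72. Fibroblast markers summed to 0.956 to 4.98 over the 13 libraries, and trophoblast markers to 6.05 to 19. Tfap2c, which is also in the list of germ cell specifiers, held most of the trophoblast sum in mESC, at 11.2 to 16.6. Of the 10 primitive endoderm markers, Sparc held most of the level in every library. Mutant #3 was also the highest EpiLC library for several of the others: Foxa2 was at 3.66 against at most 0.0674, Sox17 at 2.33 against at most 0.123 and Pdgfra at 0.919 against at most 0.226. Gata4 was at 0.816 in it and at 0.312 to 0.728 in the other EpiLC libraries, and Cubn at 0.103 against at most 0.0925. Gata6 was at 1.45 against at most 0.292, and Sox7 at 0.175 against at most 0.142. Dab2 went the other way and was lowest in mutant #3, at 1.76 against 2.47 to 4.60. Sparc and Amn lay within the range of the other EpiLC libraries. Foxa2 and Sox17 are also in the list of mesendoderm genes. The naive markers summed to 437 to 556 in mESC and 30.7 to 79.8 in EpiLC, and the EpiLC markers to 21.6 to 28.8 and 39.5 to 104. These sums follow the state labels, but not every EpiLC marker rose. In XX, Otx2 was at 16.4 to 24.3 in mESC and 10.2 to 10.7 in EpiLC. Lef1 was at 0.0533 to 0.371 and 0.205 to 0.288 in the same groups. Fgf5, Pou3f1 and Dnmt3b rose in both genotypes. The part of all these markers in the results below was not tested.

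Tet3 itself (chromosome 6, 83362373 to 83459084, GRCm38) was measured as a check of the genotype label. In XX EpiLC it was at 1.24, 1.72 and 1.68 scaled TPM, and in Tet3-/- EpiLC at 1.14, 0.983 and 0.912. In mESC it was at 0.799, 0.626 and 1.11 in XX and at 0.556, 0.599, 0.499 and 0.731 in mutants #1 to #4. The mutants lay below every XX library in EpiLC and overlapped XX in mESC. Tet3-/- minus XX was -0.34 in EpiLC and -0.20 in mESC, and neither was called (limma adjusted p 0.189 and 0.522). The transition difference of Tet3 was -0.14 ± 0.17 (SE, limma adjusted p 0.954). Since the labels do not give the deleted part, this level checks the label only weakly.

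**Figure D1:**
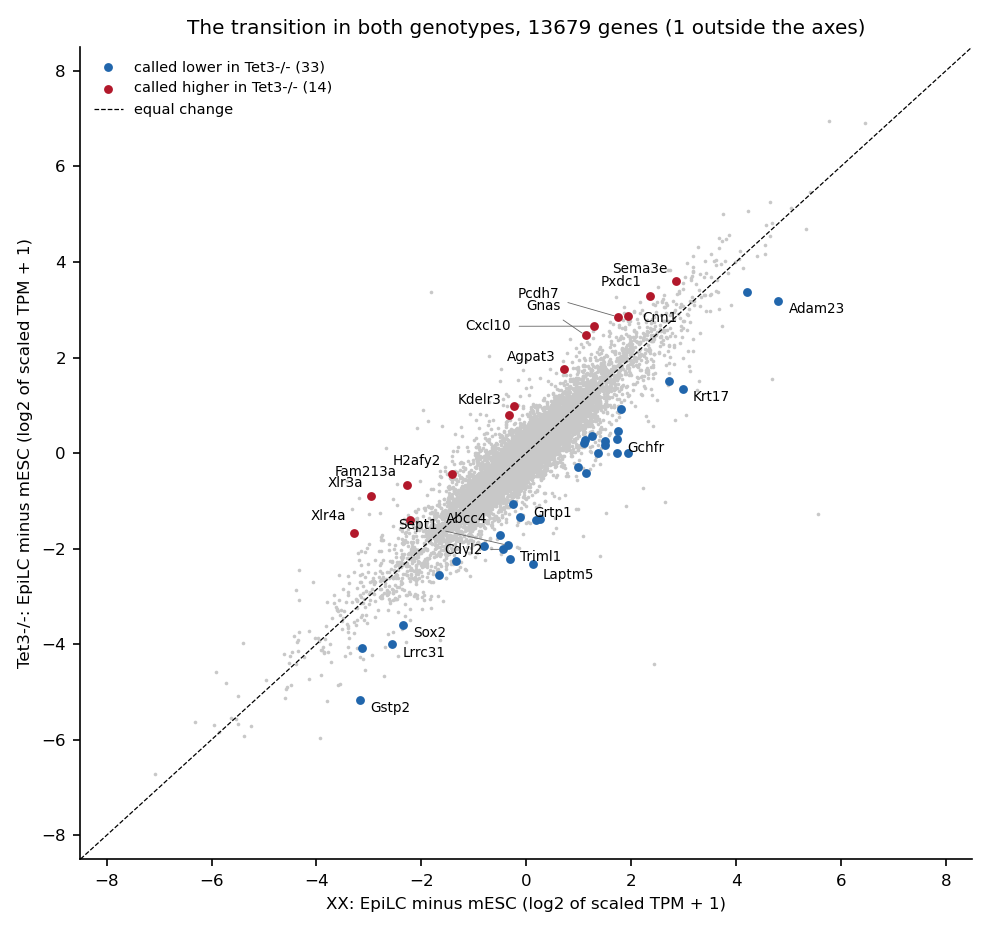
Change from mESC to EpiLC of each tested gene in XX (x axis) and in Tet3-/- (y axis), on log2(scaled TPM + 1). Each grey point is 1 of 13679 genes (1 lies outside the axes), blue marks the 33 genes called lower in Tet3-/- and red the 14 called higher. Most genes lie along the dashed line of equal change. The 24 genes described by library in the text are labelled.

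The 33 genes called lower had a median transition difference of -1.28. Their median change was 0.98 in the XX transition and -0.41 in the Tet3-/- transition. Set side by side within each state, Tet3-/- minus XX had a median of 0.05 in mESC and -1.25 in EpiLC for these genes. Their median was thus near 0 in mESC and below 0 in EpiLC. For scale, of all genes tested 47.7% were called in the XX transition (21.6% higher in EpiLC, 26.1% lower) and 49.2% in the Tet3-/- transition (21.9% and 27.3%). Between the genotypes 1.97% were called in mESC (0.958% higher in Tet3-/-, 1.01% lower) and 3.7% in EpiLC (1.2% and 2.5%). Protein-coding genes made up 27 of the 33, and for 18 the mean TPM reached 5 in some group. The 14 genes called higher, all protein-coding, had a median of 1.11, with median changes of 0.24 in XX and 1.37 in Tet3-/-, and of -0.20 in mESC and 0.80 in EpiLC between the genotypes. These medians describe genes chosen by the test itself. For called genes, statements below that groups did not overlap rest on the same values and are no further support. The share of all genes without such overlap was not counted.

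Promoter sequence is shown for 5 of the called genes: Laptm5, the lowest, and pairs of neighbours that moved together, Triml1 with Triml2 (lower) and Xlr3a with Xlr4a (higher). Each is the RefSeq window (GRCm38.p6) from 250 bases before to 50 after the gene's start, read 5′ to 3′ on the gene's strand. The RefSeq start lies 191 bases from that of the GENCODE gene model for Laptm5, 29 for Xlr4a and 5 for Triml2, and equals it for Triml1 and Xlr3a. CG dinucleotides, the sites at which DNA methylation is added and TET enzymes act, are in capitals.
Laptm5, chr4:130913066-130913365, plus strand: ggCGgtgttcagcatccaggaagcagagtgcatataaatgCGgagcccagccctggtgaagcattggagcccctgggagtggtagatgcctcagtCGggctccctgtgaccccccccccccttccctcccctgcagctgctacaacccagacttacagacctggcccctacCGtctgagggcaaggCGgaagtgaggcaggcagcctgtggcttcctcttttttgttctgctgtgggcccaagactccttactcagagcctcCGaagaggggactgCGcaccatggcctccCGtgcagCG
Triml1, chr8:43141437-43141736, minus strand: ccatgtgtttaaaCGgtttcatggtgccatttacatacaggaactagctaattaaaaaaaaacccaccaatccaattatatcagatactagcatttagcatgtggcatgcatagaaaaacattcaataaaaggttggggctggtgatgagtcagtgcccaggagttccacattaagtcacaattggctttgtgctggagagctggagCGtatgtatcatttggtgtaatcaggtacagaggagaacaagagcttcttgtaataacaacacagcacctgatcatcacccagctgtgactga
Triml2, chr8:43180286-43180585, plus strand: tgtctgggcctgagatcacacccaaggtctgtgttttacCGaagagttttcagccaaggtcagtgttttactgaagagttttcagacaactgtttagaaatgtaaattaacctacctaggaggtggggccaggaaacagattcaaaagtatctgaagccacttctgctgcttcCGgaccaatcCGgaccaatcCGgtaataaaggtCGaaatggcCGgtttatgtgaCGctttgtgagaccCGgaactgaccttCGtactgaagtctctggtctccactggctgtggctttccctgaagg
Xlr3a, chrX:73097046-73097345, minus strand: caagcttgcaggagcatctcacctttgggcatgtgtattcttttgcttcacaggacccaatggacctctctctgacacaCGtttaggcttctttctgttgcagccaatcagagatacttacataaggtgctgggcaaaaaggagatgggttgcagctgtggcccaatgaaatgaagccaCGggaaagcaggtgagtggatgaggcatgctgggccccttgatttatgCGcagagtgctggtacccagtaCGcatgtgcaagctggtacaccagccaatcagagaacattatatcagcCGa
Xlr4a, chrX:73082458-73082757, minus strand: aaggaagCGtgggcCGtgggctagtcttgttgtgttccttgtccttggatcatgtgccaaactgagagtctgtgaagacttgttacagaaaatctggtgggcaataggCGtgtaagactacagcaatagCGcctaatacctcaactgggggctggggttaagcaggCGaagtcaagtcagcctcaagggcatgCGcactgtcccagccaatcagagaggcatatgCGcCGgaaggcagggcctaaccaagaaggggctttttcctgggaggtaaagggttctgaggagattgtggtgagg

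The Triml1 window held 2 CG, Xlr3a 5, Xlr4a 8, and Laptm5 and Triml2 9 each. Over all tested genes with a window (9703 of 13679) the median was 21 and the range 0 to 65, and 99.6% of windows held at least 1 CG. For the genes called lower the median was 12 (range 2 to 41, 19 of 33 matched by symbol), and for those called higher 11 (range 5 to 47, 12 of 14). These are descriptions of the letters and say nothing of methylation, which was not measured here. The longest run shared by the Xlr3a and Xlr4a windows was ccagccaatcagaga, 15 bases on the gene's strand, which 9 of all 32851 windows held (0.0274%).

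Several lower genes changed little in XX and fell in Tet3-/-. Laptm5 (chromosome 4, 130913125 to 130936141), a lysosomal membrane protein known from blood cells, was at 9.14, 17.3 and 8.94 scaled TPM in XX mESC and 10.8, 13.6 and 12.7 in XX EpiLC. Its Tet3-/- levels were 9.11, 14.4, 13.9 and 12.2 in mESC and 1.12, 2.12 and 1.74 in EpiLC. Only the mutant EpiLC libraries were low, all 3 below every other library. The difference was -2.45 ± 0.33 (SE, limma adjusted p 0.0104, called in 11 of 13 leave-one-out fits). Its change was 0.12 in XX (not called) and -2.33 in Tet3-/-. In bulk RNA such as this, fewer cells with a transcript and less of it per cell cannot be told apart.

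Cdyl2 (chromosome 8, 116574400 to 116732991), a chromodomain protein that binds methylated histone H3, gave the same order with the least spread. It was at 8.87, 8.63 and 9.42 scaled TPM in XX mESC, 9.01, 10.0, 9.29 and 10.0 in Tet3-/- mESC, 5.8, 6.54 and 6.78 in XX EpiLC, and 1.52, 1.66 and 1.66 in Tet3-/- EpiLC. The genotypes overlapped in mESC and were far apart in EpiLC. It fell by 0.44 on the log2 scale in XX and by 2.02 in Tet3-/-, a difference of -1.58 ± 0.12 (SE, limma adjusted p 0.000118, called in 13 of 13 leave-one-out fits).

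Triml1 and Triml2, members of the tripartite motif family known from early embryos, lie beside each other on chromosome 8 in opposite orientation, 39054 bases apart with no tested gene between. Triml1 was at 13.7, 20.6 and 14.8 scaled TPM in XX mESC, 18.7, 22.6, 21.4 and 20.6 in Tet3-/- mESC, 11.3, 13.6 and 13.6 in XX EpiLC, and 3.53, 3.18 and 4.32 in Tet3-/- EpiLC. Triml2 was at 38.1, 44.4 and 38.9 in XX mESC, 40.8, 36.6, 42.6 and 37.7 in Tet3-/- mESC, 21.3, 23.7 and 23.0 in XX EpiLC, and 8.34, 9.98 and 10.3 in Tet3-/- EpiLC. Both were lower in every Tet3-/- EpiLC library than in any XX library, while the mESC groups overlapped. The differences were -1.92 ± 0.21 for Triml1 (SE, limma adjusted p 0.00279, 13 of 13 leave-one-out fits) and -1.13 ± 0.16 for Triml2 (SE, limma adjusted p 0.0131, 9 of 13).

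Sox2 (chromosome 3, 34650405 to 34652461), a core pluripotency factor, fell in both genotypes and fell further in Tet3-/-. Its mESC levels were 80.0, 83.1 and 77.2 scaled TPM in XX and 92.7, 102, 94.9 and 85.8 in Tet3-/-. Its EpiLC levels were 15.1, 14.4 and 15.3 in XX and 6.08, 6.89 and 7.64 in Tet3-/-. The mutants thus lay above every XX library in mESC and below every XX library in EpiLC. It fell by 2.35 on the log2 scale in XX and by 3.59 in Tet3-/-, a difference of -1.25 ± 0.15 (SE, limma adjusted p 0.00538, called in 12 of 13 leave-one-out fits).

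Other lower genes were low in mESC and rose less in Tet3-/-. Krt17 (chromosome 11), a keratin, was at most 0.245 scaled TPM in mESC. It rose to 8.07, 7.16 and 7.57 in XX EpiLC and to 1.03, 1.6 and 2.28 in Tet3-/- EpiLC, a difference of -1.63 ± 0.21 (SE, limma adjusted p 0.00926, 10 of 13 leave-one-out fits). The XX EpiLC libraries were all above the mutants. Adam23 (chromosome 1), a cell surface disintegrin, was at most 0.932 in mESC and reached 34.8, 38.9 and 38.3 in XX EpiLC and 15.6, 8.12 and 16.0 in Tet3-/- EpiLC (difference -1.61 ± 0.30 SE, limma adjusted p 0.0495, 3 of 13). Mutant #3 was the lowest of the mutants for this gene. Gchfr (chromosome 2), which regulates GTP cyclohydrolase 1, went from 1.5, 0.773 and 1.55 in XX mESC to 6.56, 5.87 and 6.81 in XX EpiLC. In Tet3-/- it was at 1.57, 0.958, 0.798 and 1.55 in mESC and 1.75, 1.56 and 1.75 in EpiLC. Its rise in XX was 1.72, and its change of 0.29 in Tet3-/- was not called (difference -1.43 ± 0.23 SE, limma adjusted p 0.0292, 5 of 13).

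Lamb3 was also called lower and was chosen for mention after its values were seen. Lamb3 (chromosome 1), a laminin chain of basement membranes, was at most 0.225 scaled TPM in mESC, at 6.09, 6.58 and 7.41 in XX EpiLC, and at 2.23, 1.79 and 2.24 in Tet3-/- EpiLC. The EpiLC groups did not overlap, and the spread within each was small against the gap. The difference was -1.21 ± 0.16 (SE, limma adjusted p 0.00804, called in 11 of 13 leave-one-out fits). Krt8 and Krt18, keratins of simple epithelia, had differences of 1.04 ± 0.27 and 1.26 ± 0.83 (SE, limma adjusted p 0.178 and 0.758) and were not called.

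Gstp2 (chromosome 19), a glutathione transferase, fell in both genotypes and further in Tet3-/-. It was at 150 to 239 scaled TPM in the 7 mESC libraries of both genotypes, at 20.0, 20.0 and 17.9 in XX EpiLC, and at 2.95, 3.55 and 7.71 in Tet3-/- EpiLC. The difference was -1.99 ± 0.37 (SE, limma adjusted p 0.0483) and was called in 2 of 13 leave-one-out fits. Gstp1, Gstp2 and Gstp3 are related copies, so the split of reads between them may be uncertain. Their summed level gave a difference of -0.65.

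Of the other 4 lower genes named by the rule, Sept1 (a septin, chromosome 7) had a difference of -1.59, Lrrc31 (chromosome 3) of -1.44, Grtp1 (chromosome 8) of -1.24 and Abcc4 (an exporter of cyclic nucleotides, chromosome 14) of -1.22. Their limma adjusted p-values were 0.0299, 0.031, 0.0292 and 0.0435. For all 4 the Tet3-/- EpiLC libraries lay below every XX EpiLC library. Grtp1 was lower in Tet3-/- already in mESC, with 14.4, 15.3 and 14.9 scaled TPM in XX against 9.21, 9.46, 10.5 and 7.06, and in EpiLC it was at 14.1, 14.0 and 13.0 against 2.73, 2.45 and 3.69. Leaving out 1 library at a time kept the call in 4, 4, 5 and 2 of 13 fits.

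**Figure D2:**
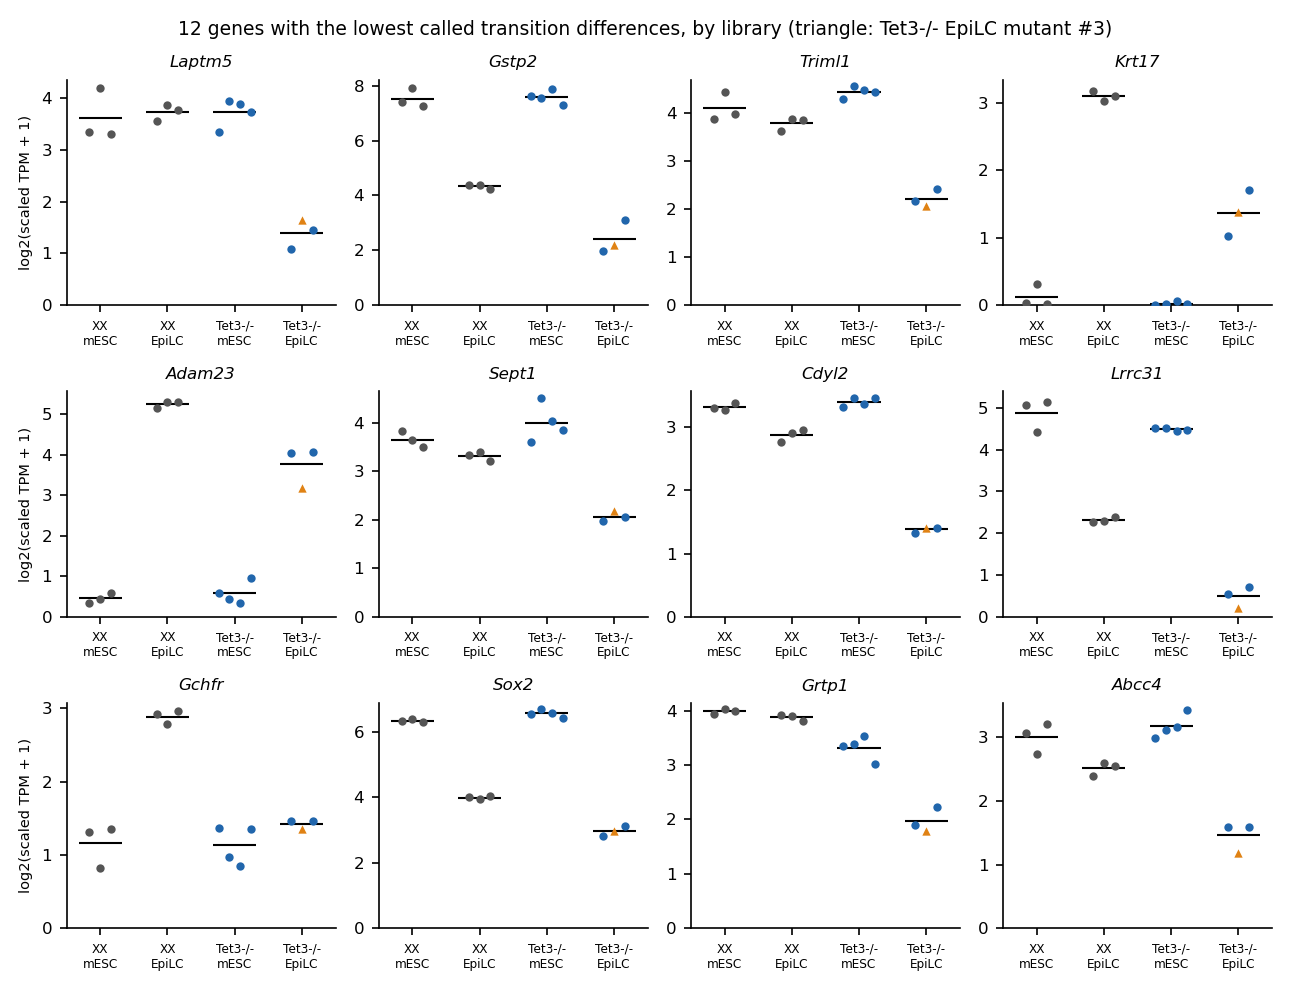
Levels of the 12 genes with the lowest called transition differences, as log2(scaled TPM + 1) on the y axis, in the 4 groups on the x axis. Each point is 1 library (XX grey, Tet3-/- blue, EpiLC mutant #3 an orange triangle), and bars are group means. In every panel the Tet3-/- EpiLC points lie below the XX EpiLC points, for Laptm5 at 1.12 to 2.12 scaled TPM against 10.8 to 13.6.

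Among the 14 higher genes, 2 X-linked neighbours fell less in Tet3-/- than in XX. Xlr3a and Xlr4a belong to the X-linked lymphocyte-regulated family, which lies in a cluster of copies on the X chromosome. Xlr3a (73086293 to 73097095) was at 48.3, 38.7 and 47.5 scaled TPM in XX mESC, 53.2, 55.9, 56.6 and 49.6 in Tet3-/- mESC, 4.83, 5.23 and 4.55 in XX EpiLC, and 38.0, 22.3 and 27.4 in Tet3-/- EpiLC. Xlr4a (73074345 to 73082478) was at 28.9, 19.8 and 26.2, then 32.3, 31.1, 28.1 and 24.6, then 1.90, 1.29 and 1.76, and 11.4, 9.34 and 5.51 in the same groups. The XX EpiLC libraries were the lowest for both genes, and all 3 mutants were above them. The differences were 2.07 ± 0.23 for Xlr3a (SE, limma adjusted p 0.00279, 13 of 13 leave-one-out fits) and 1.62 ± 0.30 for Xlr4a (SE, limma adjusted p 0.0483, 2 of 13).

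All 9 tested members of the Xlr family had a difference above 0, with a median of 1.37, and 2 were called higher and 0 lower (background 0.102% and 0.241%). Xlr5c had the smallest, 0.23, and was at -0.04 without scaling. In XX the family's median change was -3.29 and in Tet3-/- -1.99. Xlr3b had the largest difference, 2.14 ± 0.40 (SE, limma adjusted p 0.0507), with 2.21, 2.03 and 2.28 scaled TPM in XX EpiLC and 18.2, 18.2 and 14.5 in Tet3-/- EpiLC. Reads of near-identical copies can be split between them, so single members are uncertain. The sum of Xlr3a, Xlr3b and Xlr3c was at 7.26, 7.46 and 7.05 in XX EpiLC and 59.0, 47.2 and 44.1 in Tet3-/- EpiLC (difference 2.28). The sum of Xlr4a, Xlr4b and Xlr4c had a difference of 2.03. Over the whole X chromosome 2 of 567 tested genes were called (0.353%), against 45 of 13096 autosomal genes (0.344%).

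Cxcl10, Pcdh7, Cnn1, Pxdc1 and Sema3e were near 0 in mESC and rose more in Tet3-/-. Cxcl10 (chromosome 5), a chemokine induced by interferon, was at most 0.178 scaled TPM in mESC, at 1.58, 1.55 and 1.39 in XX EpiLC, and at 5.76, 7.23 and 4.37 in Tet3-/- EpiLC. Its difference was 1.36 ± 0.19 (SE, limma adjusted p 0.015, 8 of 13 leave-one-out fits). Pcdh7, a protocadherin, was at 2.36, 2.52 and 2.27 in XX EpiLC and at 8.19, 6.53 and 4.72 in Tet3-/- EpiLC (1.10 ± 0.20 SE, limma adjusted p 0.0435). For both genes every mutant lay above every XX library in EpiLC. Cnn1, the actin-binding protein calponin 1, went to 3.24, 3.30 and 2.68 in XX and to 6.62, 7.48 and 5.90 in Tet3-/- (0.93 ± 0.16 SE, limma adjusted p 0.031). Pxdc1 and the guidance ligand Sema3e had differences of 0.93 and 0.74 (limma adjusted p 0.0292 and 0.0478), again with no overlap in EpiLC. Pcdh7, Cnn1, Pxdc1 and Sema3e were called in 3, 3, 3 and 2 of 13 leave-one-out fits.

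For several other higher genes the genotypes were apart in mESC, in the opposite direction. Gnas (chromosome 2), an imprinted gene that encodes the stimulatory G protein alpha subunit, was at 30.1, 25 and 27.3 scaled TPM in XX mESC and 16.9, 9.87, 14.9 and 15.1 in Tet3-/- mESC. In EpiLC it was at 61.6, 62.4 and 59.6 in XX and 89.1, 86.4 and 69.6 in Tet3-/-. The mutants were all below XX in mESC and all above in EpiLC (difference 1.33 ± 0.24 SE, limma adjusted p 0.0435, 3 of 13 leave-one-out fits). Its transcript Gnas-208 held the largest part and had the same order, with 15.2 to 17.2 and 6.26 to 9.21 in mESC and 34.0 to 39.3 and 39.7 to 57.4 in EpiLC. Kdelr3 (chromosome 15), a receptor that returns proteins to the endoplasmic reticulum, was at 7.35, 6.34 and 7.73 in XX mESC and only 1.98, 1.71, 1.95 and 1.48 in Tet3-/- mESC. In EpiLC it was at 5.19, 5.85 and 5.47 in XX and 3.33, 3.87 and 4.36 in Tet3-/-. Kdelr3 was thus below XX in both states, by less in EpiLC (difference 1.12 ± 0.16 SE, limma adjusted p 0.0146, 9 of 13).

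Fam213a, a peroxiredoxin-like protein (chromosome 14), had a difference of 1.62 (limma adjusted p 0.0292), Agpat3, an enzyme of phospholipid synthesis (chromosome 10), 1.04 (0.0292 by limma, adjusted) and H2afy2, the histone variant macroH2A2 (chromosome 10), 0.99 (0.0312 by limma, adjusted). Each was lower in all 4 Tet3-/- mESC libraries than in XX mESC and higher in all 3 Tet3-/- EpiLC libraries than in XX EpiLC. Fam213a, for example, was at 28.5, 40.5 and 27.3 scaled TPM in XX mESC, 18.0, 18.3, 20.5 and 15.6 in Tet3-/- mESC, 5.96, 5.64 and 5.53 in XX EpiLC, and 14.4, 8.13 and 11.3 in Tet3-/- EpiLC. They were called in 4, 4 and 3 of 13 leave-one-out fits.

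**Figure D3:**
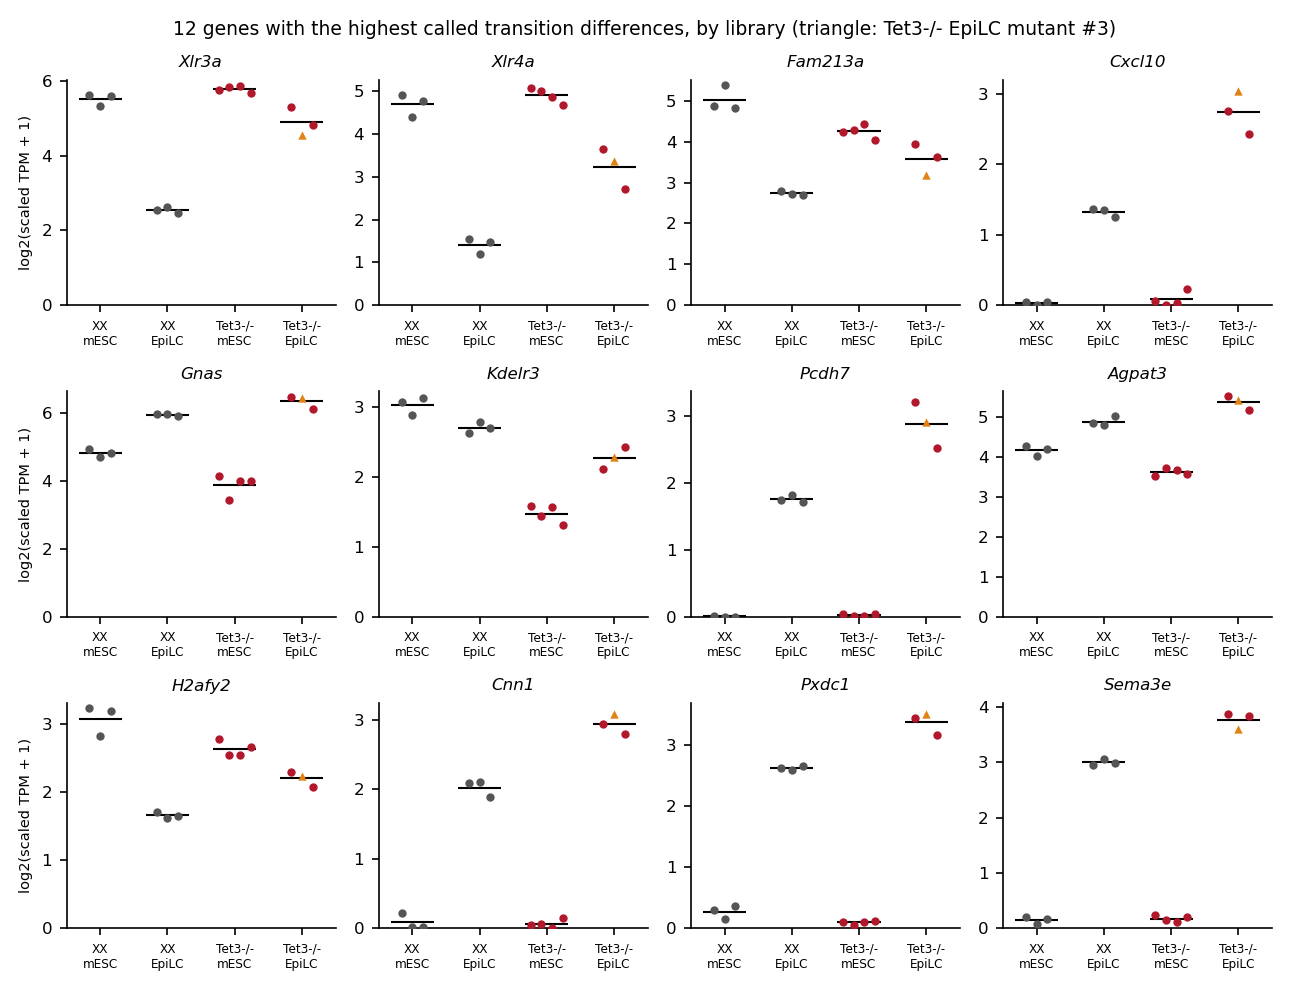
Levels of the 12 genes with the highest called transition differences, as log2(scaled TPM + 1) on the y axis, in the 4 groups on the x axis. Each point is 1 library (XX grey, Tet3-/- red, EpiLC mutant #3 an orange triangle), and bars are group means. In EpiLC the Tet3-/- points lie above the XX points in 11 panels and below them for Kdelr3.

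The naive pluripotency genes had median changes of -3.10 in XX and -3.92 in Tet3-/-. Their median transition difference was -0.62, against 0.01 for all genes, and 14 of 16 tested members were below 0. By the test, 1 was called lower (Nr5a2) and 0 higher, against 0.241% and 0.102% of all genes. In mESC the list's median of Tet3-/- minus XX was -0.18 and in EpiLC -0.78. Nr5a2, a nuclear receptor that acts on Pou5f1, was at 1.12, 1.39 and 1.10 scaled TPM in XX EpiLC and 0.183, 0.637 and 0.251 in Tet3-/- EpiLC. In mESC it was at 16.8, 19.2 and 18.6 in XX and 20.3, 21.7, 24.0 and 21.4 in Tet3-/-. Its groups did not overlap in EpiLC (difference -0.96 ± 0.18 SE, limma adjusted p 0.0478, 2 of 13 leave-one-out fits).

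Esrrb, a nuclear receptor of the naive network, was at 11.5, 12.3 and 11.9 scaled TPM in XX EpiLC and at 1.80, 4.87 and 3.31 in Tet3-/- EpiLC. Its mESC levels were 99.1 to 116 in XX and 83.5 to 110 in Tet3-/-. The mutants were below XX in EpiLC and overlapped it in mESC. Its difference of -1.46 ± 0.30 missed the threshold (SE, limma adjusted p 0.0761). Nanog was at 39.3, 36.7 and 36.6 in XX EpiLC and 19.5, 25.5 and 22.3 in Tet3-/- EpiLC (difference -0.66, limma adjusted p 0.194), and Zfp42 at 17.4, 15.6 and 16.3 against 5.05, 7.98 and 7.72 (-1.09, limma adjusted p 0.199). Tfcp2l1 (-1.15), Tcl1 (-1.37), Klf2 (-0.78) and Tdh (-1.95), an enzyme of threonine breakdown, were not called either (limma adjusted p 0.198, 0.425, 0.31 and 0.219). Tdh varied within XX mESC, with 77.1, 198 and 74.1. Klf4 and Klf5 were the 2 members above 0, at 0.14 and 0.21.

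The formative genes had a median difference of 0.64, and all 12 tested members were above 0, while 0 were called higher and 0 lower (0.102% and 0.241% of all genes). Of all genes, 7080 of 13679 were above 0. Without scaling, and after rescaling over nuclear protein-coding genes, 11 of the 12 were above 0. Otx2, a transcription factor of the formative state, was at 10.7, 10.4 and 10.2 scaled TPM in XX EpiLC and at 18.5, 15.4 and 16.6 in Tet3-/- EpiLC. Its mESC levels were 24.3, 16.4 and 23.3 in XX and 21.1, 15.6, 19.3 and 19 in Tet3-/-. It was lower in XX EpiLC than in any other library, by a change of -0.94 in XX and -0.14 in Tet3-/-, and the difference of 0.80 ± 0.21 was not called (SE, limma adjusted p 0.18). Sox3 was at 1.10, 1.28 and 0.990 in XX EpiLC and 3.28, 2.23 and 3.28 in Tet3-/- EpiLC (difference 0.75, limma adjusted p 0.139). Fgf5, the growth factor that names this state, had a difference of 1.55 ± 0.68 (SE, limma adjusted p 0.513), which moved to 0.70 without mutant #3. Dnmt3a and Dnmt3b, which add methylation, had differences of 0.63 and 0.36 and were not called.

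**Figure D4:**
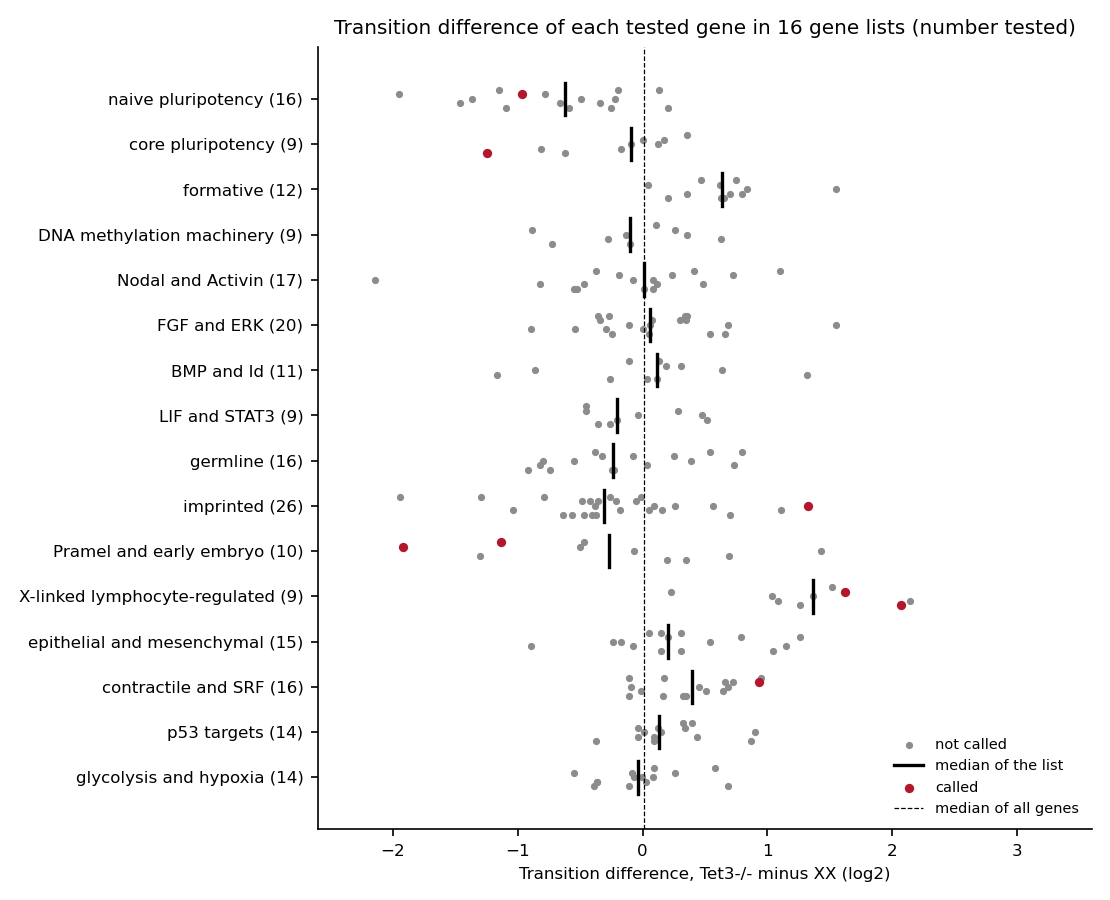
Transition difference (x axis, log2) of each tested gene in 16 gene lists (y axis, number tested in brackets). Grey points were not called, red points were called, thick bars are list medians and the dashed line is the median of all genes, 0.01. The naive list has a median of -0.62, the formative list 0.64 and the X-linked lymphocyte-regulated list 1.37.

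Core pluripotency genes other than Sox2 were not called, where 0.102% of all genes were called higher and 0.241% lower. The list had a median of -0.09, with 5 of 9 members below 0, and Pou5f1, the gene of OCT4, had a difference of 0.17. Dppa4, a chromatin protein of pluripotent cells, was at 22.8, 22.4 and 22.8 scaled TPM in XX EpiLC and 13.6, 9.58 and 18.6 in Tet3-/- EpiLC (-0.81, limma adjusted p 0.312). In the list of Pramel and other early-embryo genes 2 of 10 were called lower, the Triml pair (0.241% of all genes were), and the median was -0.27. Pramel7, in the same list, had a difference of 1.43 (limma adjusted p 0.441) and was at 0.222 to 0.427 in all EpiLC libraries.

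Of the DNA methylation machinery, 0 of 9 genes were called higher and 0 lower (0.102% and 0.241% of all genes were), with a median of -0.10. Tet1, the main TET gene of naive cells, was at 13.4, 17.3 and 15.2 scaled TPM in XX EpiLC and 6.07, 13.7 and 6.72 in Tet3-/- EpiLC. Mutant #3 lay within the XX range and the other mutants below it (difference -0.73, limma adjusted p 0.538). Dnmt3l, a cofactor of DNMT3A and DNMT3B, was at 17.5, 16.6 and 15.9 in XX EpiLC and 3.36, 9.38 and 7.29 in Tet3-/- EpiLC (-0.89, limma adjusted p 0.863). XX mESC 2 was low for this gene, at 3.12 against 17.1 and 16.7.

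The signalling lists had medians between -0.21 and 0.11. The Nodal and Activin list had a median of 0.01 (17 tested), FGF and ERK 0.06 (20), BMP and Id 0.11 (11), Wnt -0.19 (8) and LIF and STAT3 -0.21 (9). By limma 0 of their genes were called, where only 0.344% of all genes were. Without mutant #3 the medians moved to -0.11, -0.15, 0.03, -0.56 and -0.05 in the same order, against -0.02 for all genes. Then 1 gene of the FGF and ERK list was called higher (Fgf5) and 1 lower, Spry4 (-0.76, limma adjusted p 0.0295). In XX EpiLC Spry4 was at 1.31, 1.46 and 1.34 scaled TPM. It was at 0.368, 2.98 and 0.438 in the EpiLC mutants #1, #3 and #4. Of the Wnt list 1 was called lower without mutant #3, Sp5, a target of Wnt signals (-1.07, limma adjusted p 0.0481). Over all genes 0.214% were called higher and 0.532% lower in that fit. Fgf4, the ligand made by naive cells, was at 9.88, 10.1 and 9.94 scaled TPM in XX EpiLC and 3.37, 3.87 and 5.01 in Tet3-/- EpiLC, with no overlap (-0.89, limma adjusted p 0.13). Lefty1 and Lefty2, secreted inhibitors of Nodal, were at 15.1 to 16.5 and 10.4 to 11.4 in XX EpiLC. In the mutants #1, #3 and #4 Lefty1 was at 5.95, 31.1 and 5.90 and Lefty2 at 1.21, 10.6 and 2.51. Mutant #3 was the high one for both, and the differences of -0.82 and -2.15 were not called (limma adjusted p 0.865 and 0.567). Id2, a target of BMP signals, was at 18.1, 14.8 and 15.0 in XX mESC against 6.51, 3.03, 4.88 and 4.44 in Tet3-/- mESC, and overlapped in EpiLC (difference 1.32, limma adjusted p 0.094).

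Imprinted genes had a median of -0.31, with 18 of 26 below 0, and 1 called higher (Gnas) and 0 lower, against 0.102% and 0.241% of all genes. Without mutant #3 the list had 0 called in either direction, against 0.747% of all genes. H19, a maternally expressed non-coding RNA, was at 42.2, 40.8 and 42.2 scaled TPM in XX EpiLC and at 6.45, 14.4 and 13.6 in Tet3-/- EpiLC. In mESC it was at 2.58, 5.83 and 2.61 in XX and 5.48, 8.52, 0.397 and 5.01 in Tet3-/-. The EpiLC groups did not overlap, the mESC libraries varied widely, and the difference of -1.94 ± 0.78 was not called (SE, limma adjusted p 0.458). Meg3, Rian and Mirg, non-coding RNAs of 1 imprinted domain on chromosome 12, had differences of -1.29, -0.79 and -1.04 (limma adjusted p 0.34, 0.419 and 0.406). Rian was at 16.3, 15.5 and 16.4 in XX mESC and 28.4, 57.1, 42.7 and 30.9 in Tet3-/- mESC, so the genotypes were apart before the transition.

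Among the structural lists, contractile genes and targets of serum response factor had a median of 0.40, with 12 of 16 above 0 and Cnn1 called higher (0.102% of all genes were). The median was 0.56 without mutant #3. Epithelial and mesenchymal genes had a median of 0.21 and 0 called (15 tested), where 0.344% of all genes were called in either direction. The same share applies to the counts of 0 below. Cldn3, a tight junction protein, was at 13.9, 15.1 and 15.0 scaled TPM in XX EpiLC and 8.08, 2.98 and 7.4 in Tet3-/- EpiLC, lowest in mutant #3 (-0.90, limma adjusted p 0.444). Cytoplasmic ribosomal protein genes had a median of 0.19 (71 of 78 above 0) and replication-dependent histone genes of 0.34 (48 of 64 above 0), with 0 called in each. Without mutant #3 the ribosomal median was 0.42 and the histone median 0.20. The germline, p53 target, glycolysis and mitochondrially encoded lists had medians of -0.24, 0.13, -0.04 and 0.01 and 0 called, and -0.04, 0.15, -0.15 and 0.04 without mutant #3. Xist had a difference of -0.39 (limma adjusted p 0.854), with 25.6, 30.2 and 29.0 in XX EpiLC and 24.8, 32.9 and 18.8 in Tet3-/- EpiLC.

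The comparison was repeated without EpiLC mutant #3, over 13524 genes. Then 101 genes were called (0.747%), 29 higher (0.214%) and 72 lower (0.532%). Both fits called 43 of the genes, 58 were called without this library alone and 4 with it alone. Those 4 included Gstp2, Xlr4a and Gnas, whose limma adjusted p-values became 0.0696, 0.0696 and 0.0511. Their differences moved little, to -1.87, 1.54 and 1.28. The fourth was Gm26157, annotated as rRNA and chosen for mention after its value was seen.

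Of the genes gained, Esrrb was called at -1.71 (limma adjusted p 0.015) and Fgf5 at 0.70 (limma adjusted p 0.0321). Trh, the precursor of thyrotropin-releasing hormone, was at 11.0, 9.92 and 10.1 scaled TPM in XX EpiLC and at 1.40, 24.0 and 3.03 in the mutants #1, #3 and #4. It was called at -2.75 without mutant #3 (limma adjusted p 0.0416) and had -1.77 with it. Sox3 was called higher at 0.88 (limma adjusted p 0.0295). Car4, a carbonic anhydrase, was at 61.0, 61.9 and 56.7 in XX EpiLC and 175, 102 and 138 in Tet3-/- EpiLC, and its difference was 1.36 without mutant #3 (limma adjusted p 0.00951) and 1.17 with it (limma adjusted p 0.0507). Sema3c, a guidance ligand, was at 4.61, 4.55 and 5.13 against 13.2, 4.57 and 11.2, with mutant #3 among the XX values (1.10 without it, limma adjusted p 0.00972). Nuak1 and the pseudogene Rps23-ps1 were called at 1.06 and 0.95 (limma adjusted p 0.0346 and 0.0454). Mir6374, a microRNA gene within the span of Tet3 on the same strand, was called at 3.71 (limma adjusted p 0.0465). In EpiLC it was at 12.0, 0 and 4.36 scaled TPM in the mutants #1, #3 and #4 and at 0 in XX. In mESC it was at 3.29 in XX mESC 3 and at 0 in the other libraries.

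A different order was seen for Sox21, Epp13 and Rhox6, which were called lower without mutant #3 at -1.57, -1.39 and -1.39 (limma adjusted p 0.0481, 0.0394 and 0.0321). They were higher in every Tet3-/- mESC library than in XX mESC. Sox21, a relative of Sox2, was at 1.22, 1.45 and 1.21 scaled TPM in XX mESC and 4.71, 9.66, 4.57 and 4.84 in Tet3-/- mESC, and at most 0.257 in EpiLC. Set side by side, Tet3-/- minus XX was 1.54 in mESC and 0.04 in EpiLC for this gene. Rhox6, an X-linked homeobox gene, was at 11.3, 7.50 and 11.2 against 21, 16.2, 14.3 and 16.4 in mESC, and at 1.33, 1.23 and 1.42 against 0.308, 0.908 and 0.597 in EpiLC. For the naive list the median was -0.62 without mutant #3, all 16 members were below 0, and 2 were called lower (0.532% of all genes were). For the formative list it was 0.58, with 10 of 12 above 0 and 2 called higher (0.214% of all genes were).

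**Figure D5:**
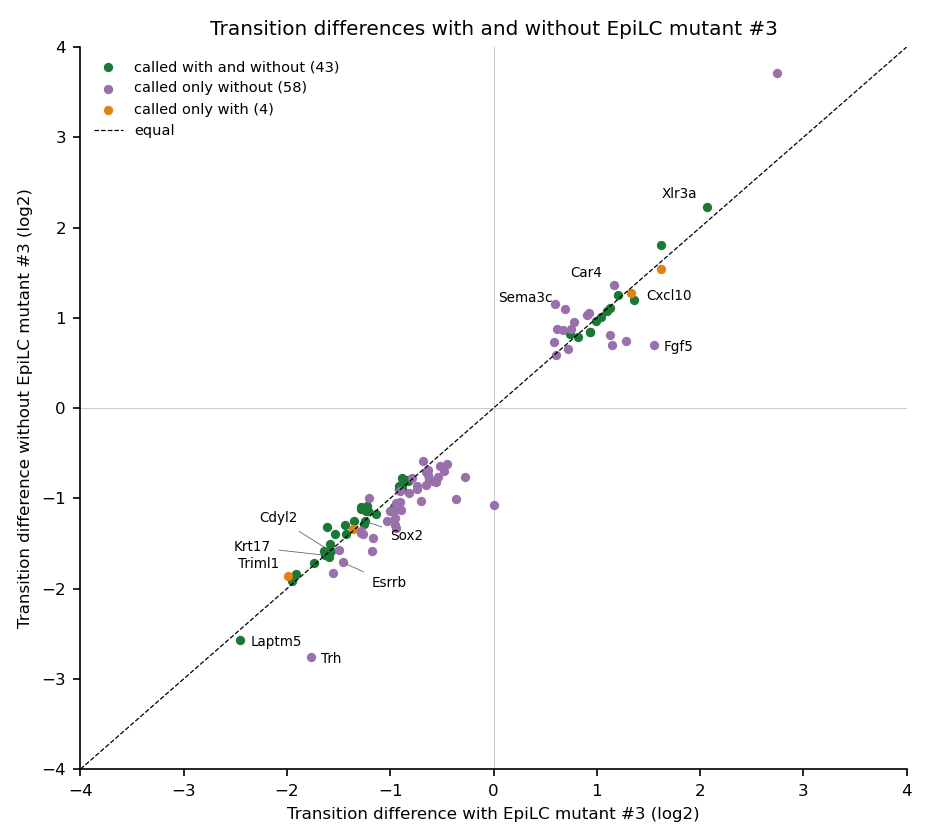
Transition difference (log2) with EpiLC mutant #3 (x axis) and without it (y axis) for genes called in either fit. Green points (43) were called in both, purple (58) only without it and orange (4) only with it. Most points lie near the dashed line of equal values, while Trh and Fgf5 lie away from it.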

How the data were processed

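Stranded total RNA libraries depleted of rRNA were made from 200 ng of RNA with an integrity number of at least 9, per the labels' protocols. The deposited table holds TPM for 140948 transcripts, and each column sums to 1000000. Salmon 1.1.0, Trimmomatic 0.35, FastQC 0.11.7 and the build GRCm38 are named per the submitters' processing notes, and the annotation is not given in the sources used here. Columns were matched to libraries by their headers, which equal the descriptions in the labels.

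Transcripts were summed to 54119 genes with GENCODE M21. Of them 139357 matched with their version and 495 without, and the 1096 others, with 0.0454% to 0.121% of TPM, were left out. Rn7s1, an abundant RNA of the signal recognition particle, held 28.5% to 43.7% of TPM. TPM was therefore divided by median-of-ratios factors (0.671 to 1.44), and log2(scaled TPM + 1) was fitted for genes reaching a TPM of 1 in 3 or more of the 13 libraries. limma 3.58.1 in R 4.3.3 was used with 4 group means and eBayes with a trend, and adjusted p-values are Benjamini-Hochberg values over all genes of a fit. All XX and Tet3-/- libraries entered 1 fit, so each group borrows the common spread. The fit was tested on simulated data. Depth cannot be recovered from TPM, so precision rests on the spread between libraries.

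Named genes are the 12 highest and 12 lowest called differences among genes whose mean TPM reached 5 in some group, the 5 highest and 5 lowest added without mutant #3, genes of the lists, and Tet3. The lists, the rule and the comparison were chosen with earlier results of these data known. Alternatives covered the pseudocount, the filter, the scaling, the other 6 libraries, array weights, a replicate block and each library left out. Figures were drawn with matplotlib 3.10.9 in Python 3.11.15.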

Additional observations from a re-analysis of the deposited data

Results flagged for a closer look

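The difference between the transitions was itself the quantity tested, so each call is a difference between the XX and Tet3-/- libraries by this test. Genotype cannot be told apart from clone or culture here. Lower in Tet3-/- were 33 genes and higher 14. The named lower genes, with limma adjusted p-values given above, were Laptm5 (-2.45), Gstp2 (-1.99), Triml1 (-1.92), Krt17 (-1.63), Adam23 (-1.61), Sept1 (-1.59), Cdyl2 (-1.58), Lrrc31 (-1.44), Gchfr (-1.43), Sox2 (-1.25), Grtp1 (-1.24), Abcc4 (-1.22), Triml2 (-1.13) and Nr5a2 (-0.96). The named higher genes were Xlr3a (2.07), Xlr4a (1.62), Fam213a (1.62), Cxcl10 (1.36), Gnas (1.33), Kdelr3 (1.12), Pcdh7 (1.10), Agpat3 (1.04), H2afy2 (0.99), Cnn1 (0.93), Pxdc1 (0.93) and Sema3e (0.74).

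In Tet3-/- mESC, the group of 4 libraries, the named genes were checked for a library far from the others, by its gap to the nearest one as a share of the group's range, on the log2 scale (Dixon's test). Mutant #2 passed Dixon's critical value for Sox21, at 9.66 scaled TPM with a share of 0.927, and for Lefty1, at 1.58 against at most 0.178 with a share of 0.871. Chance puts about 1 in 20 groups past it. Since many genes were checked, passes of this kind can arise by chance alone. Groups of 3 libraries were not tested in this way, so EpiLC mutant #3 and XX mESC 2 are described above by their values.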

How the results depend on the processing

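Higher and lower genes numbered 14 and 33. They were 8 and 18 with no filter, 4 and 8 where a TPM of 5 was required in 3 libraries, 0 and 20 on unscaled TPM, 35 and 58 in a fit of all 19 libraries, and 1940 and 2084 with array weights, which ran from 0.112 to 6.75. Without XX mESC 2 and EpiLC mutant #3 together, an alternative chosen after seeing the data, they were 348 and 330. Higher genes numbered 30 with quantile normalization, 3 after rescaling over nuclear protein-coding genes and 9 with an absolute difference of at least 1. Lower genes numbered 19 with a pseudocount of 0.1. With 1 library left out, higher genes ran from 1 to 130 and lower from 2 to 106. The causes were not tested, except that fewer genes were tested with the stricter filter (8941) and more with none (44508).

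With the replicate number as a block 0 genes were called higher and 0 lower (limma), while 1005 had an unadjusted p under 0.05. The main fit did not pair libraries by number, because the labels do not say that a number marks a shared culture. Same-numbered libraries correlated in their deviations at 0.04, -0.06 and 0.05 in XX and 0.24, 0.24 and -0.10 in Tet3-/- (mutants #1, #3 and #4). Of the 6 numbers, 3 had their best partner in their own number, among them mutants #1 and #3. With so few libraries, whose deviations sum to 0 in each group, this cannot exclude pairing. All calls given here thus rest on libraries taken as unpaired.

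All 47 called genes kept their sign in each setting that tested them, and 3 (Cdyl2, Triml1 and Xlr3a) were called in all 13 leave-one-out fits. The transition difference of Xlr5c, not called, changed sign from 0.23 to -0.040 on unscaled TPM, to -0.11 without mutant #3 in both states, and to -0.14 and -0.11 without XX mESC 1 and 3. With 1 library left out it ran from -0.14 to 0.93, the highest without XX mESC 2.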

Other observations

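The 47 called genes included 3 pairs whose gene models lie within 100000 bases of each other, each with no other tested gene between and with both members moving in the same direction. They were noticed after the results were seen and are given as values. Beside the Triml and Xlr pairs this was Aplp1 and Nphs1 on chromosome 7 (30434982 to 30445535 and 30458315 to 30487223, GRCm38), in opposite orientation and 12779 bases apart. Aplp1, a relative of the amyloid precursor protein, was at 0.987 to 1.46 scaled TPM in the 7 mESC libraries, at 4.05, 4.10 and 3.67 in XX EpiLC, and at 1.5, 1.38 and 1.64 in Tet3-/- EpiLC. Nphs1, which encodes nephrin, was at most 0.107 in mESC, at 1.69, 2.23 and 1.91 in XX EpiLC, and at 0.127, 0.363 and 0.362 in Tet3-/- EpiLC. Both rose in XX, and in EpiLC the mutants lay below every XX library, and their changes of 0.22 and 0.26 in Tet3-/- were not called. Their transition differences were -0.89 ± 0.15 and -1.25 ± 0.16 (SE, limma adjusted p 0.0309 and 0.00804), called in 4 and 10 of 13 leave-one-out fits. Nphs1 passed the filter on low values only through XX EpiLC, where it is high, and was not tested in the other 3 fits, so its call is no independent support for the pair.

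Mybl2 and Myb, transcription factors of 1 family, and Tenm3 were also called and were picked after their values were seen. Mybl2 (chromosome 2) was at 115, 111 and 119 scaled TPM in XX mESC, 73.6, 85.8, 94.6 and 73.5 in Tet3-/- mESC, 42.2, 46.8 and 46.1 in XX EpiLC, and 16.4, 15.7 and 16.8 in Tet3-/- EpiLC. It was below XX in both states, by more in EpiLC (difference -0.92 ± 0.16 SE, limma adjusted p 0.0435, called in 2 of 13 leave-one-out fits). Myb (chromosome 10) was at 2.87, 2.98 and 2.95 in XX EpiLC and 0.710, 0.420 and 1.06 in Tet3-/- EpiLC, while the mESC groups overlapped (-1.54 ± 0.27 SE, limma adjusted p 0.0419, 4 of 13). Tenm3 (chromosome 8), a cell adhesion protein of neurons, went the other way, with 1.01, 1.20 and 1.22 in XX EpiLC and 3.73, 2.92 and 3.13 in Tet3-/- EpiLC (1.21 ± 0.18 SE, limma adjusted p 0.0217, 7 of 13).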
